A study of Monodelphis domestica with 6 samples.

Results

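The neural progenitor and neuronal genes described here are 42 listed genes of the opossum Monodelphis domestica, of which 40 had a row under their symbol among the 35665 genes of the deposited tables. They were selected on their difference between induced pluripotent stem cells (monoiPSCs) and neonatal skin fibroblasts (neoSFs) in these same libraries, together with well-known relatives. Every value of that difference, including calls, standard errors and intervals, therefore describes these libraries and is no test of the listed genes. PAX7 had no row. DCX, which encodes the neuronal microtubule-binding protein doublecortin, had none under its symbol, but its RefSeq gene number, 100012526, was present under a LOC name. It is described separately and is not counted among the 40.

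RNA was sequenced from wild type neoSF cultures of 2 inbred strains, FD2M1 and LSD1, with 1 library per strain. It was also sequenced from monoiPSCs of each strain at passage 15 and at passage 25. The 4 monoiPSC libraries are treated here as 2 lines, 1 per strain. The paper speaks of 2 lines but also of 4 clones, and the labels give only strain and passage. Whether both passages of a strain came from the same clone is not known, so passage and clone cannot be told apart. The lines had been made by nucleofection of neoSFs with episomal plasmids for human OCT4, SOX2, NANOG, KLF4, LIN28 and cMYC, and were grown without feeder cells in medium with LIF, bFGF, a ROCK inhibitor and the N-2 and B-27 supplements, whereas neoSFs were grown in serum. No library came from neural tissue or from deliberately differentiated cells. Total counts were 14278794 and 16982978 in neoSFs and 28684754 to 35564261 in monoiPSCs, and neoSF libraries were read as shorter single-end reads on another platform, so that platform and cell type cannot be told apart in any difference between the groups.

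The neural plate arises when ectoderm is shielded from signals that favour epidermis, and its cells then express transcription factors that mark their position from forebrain to spinal cord and from dorsal to ventral. Proneural factors take some progenitors out of the cell cycle, and these cells then make the cytoskeletal, RNA-binding and synaptic proteins of neurons. In many cells outside the nervous system the repressor REST keeps a large set of neuronal genes silent. Several of the genes, among them GBX2, ZIC2 and GAL, are also known from pluripotent cells of other mammals.

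Levels are given as normalized read counts (NRC), the authors' DESeq-normalized counts, and library values are always listed as FD2M1 then LSD1 for neoSFs, and as FD2M1 then LSD1 at passage 15, followed by FD2M1 then LSD1 at passage 25, for monoiPSCs. NRC is not divided by transcript length, so levels are compared between libraries and not between genes. A gene was taken as expressed in a group when its NRC was at least 20 in every library of it. The detection floor was set at 3 counts in every library of a group. In neoSFs 3 counts correspond to NRC values of 5.85 and 4.75, and in monoiPSCs to 1.55 to 1.88. Limits and intervals at low counts cover counting error only. In such bulk libraries, fewer cells of a type and less RNA per cell cannot be told apart.

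Of the 40 genes, 27 were expressed in monoiPSCs and 13 were not. In 27 genes every monoiPSC library was above both neoSF libraries, and in 2 genes every monoiPSC library was below both. In neoSFs 13 of the genes were at the detection floor, and 9 of these had 0 rounded counts in both strains. Of the 29 genes expressed in either group, the edgeR call of at least 2-fold marked 24 as higher and 2 as lower in monoiPSCs, and left NKX2-2, NRCAM and SYT1 without a call. All tested genes were called higher at 24.3% and lower at 21.6%. Of these 13072 genes, 36.1% had every monoiPSC library above both neoSF libraries, and 4850 had every one below both. Among the 29 genes these counts were 24 above and 2 below. Because these 29 genes include those chosen by this comparison, nothing is read from the counts. The remaining 11 genes were expressed in neither group: OTX2, LHX2, LHX5, SIX3, SIX6, HESX1, PAX6, EN2, PAX2, OLIG2 and NEUROD1.

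**Figure D1:**
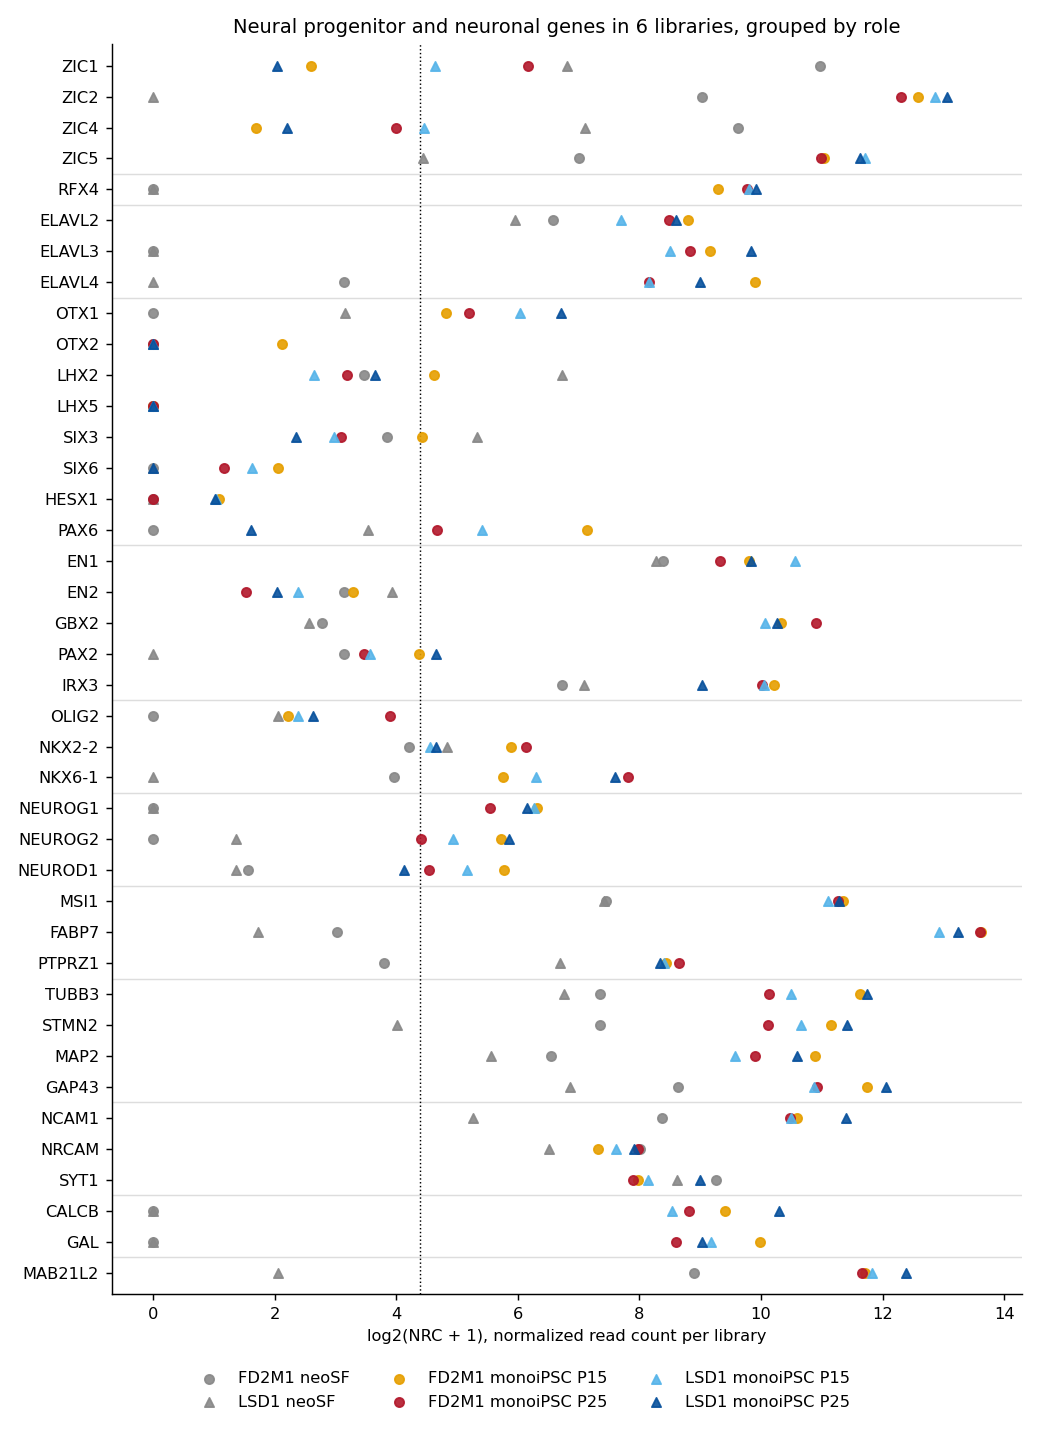
Levels of the 40 genes in each of the 6 libraries, as log2(NRC + 1) on the horizontal axis, with 1 point per library, circles for FD2M1, triangles for LSD1, grey for neoSFs and horizontal lines between roles. The dotted line marks an NRC of 20. The monoiPSC points of 27 genes lie to the right of both grey points, and OTX2, LHX5, SIX6, HESX1, EN2 and OLIG2 have every point left of the dotted line.

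The ZIC genes encode zinc finger transcription factors of the early neural plate and dorsal neural tube, and they split into 2 that were higher and 2 that were lower in monoiPSCs. ZIC2 had an NRC of 524 and 0 in neoSFs and of 6114, 7404, 5051 and 8537 in monoiPSCs. ZIC5 had 128 and 20.6 in neoSFs and 2100, 3348, 2024 and 3163 in monoiPSCs. For both genes the lowest monoiPSC library was far above the higher neoSF library. ZIC1 had 2012 and 111 in neoSFs and 5.05, 23.9, 71.0 and 3.09 in monoiPSCs. ZIC4 had 789 and 137 in neoSFs and 2.24, 21.04, 15.0 and 3.61 in monoiPSCs. These groups did not overlap either, but in the opposite direction. All 4 genes were higher in the FD2M1 than in the LSD1 neoSFs, so the size of each difference depended on the neoSF library. The log2 fold change of ZIC1 was -5.28 ± 1.32 (SE, 4 against 2 libraries) and -2.03 without the FD2M1 neoSF library, and that of ZIC4 was -5.35 ± 0.94 and -3.60 without that library. ZIC5 was 5.31 ± 0.69 on the same scale, 7.10 without the FD2M1 and 4.49 without the LSD1 neoSF library. The identifiers in the tables place all 4 genes on chromosome 7 of MonDom5. In the RefSeq gene order of the mMonDom1 assembly, ZIC1 lay next to ZIC4 and ZIC2 next to ZIC5, with 0 protein-coding genes between the members of each pair. Neighbours thus differed between the groups in the same direction, and the pairs in opposite directions.

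**Figure D2:**
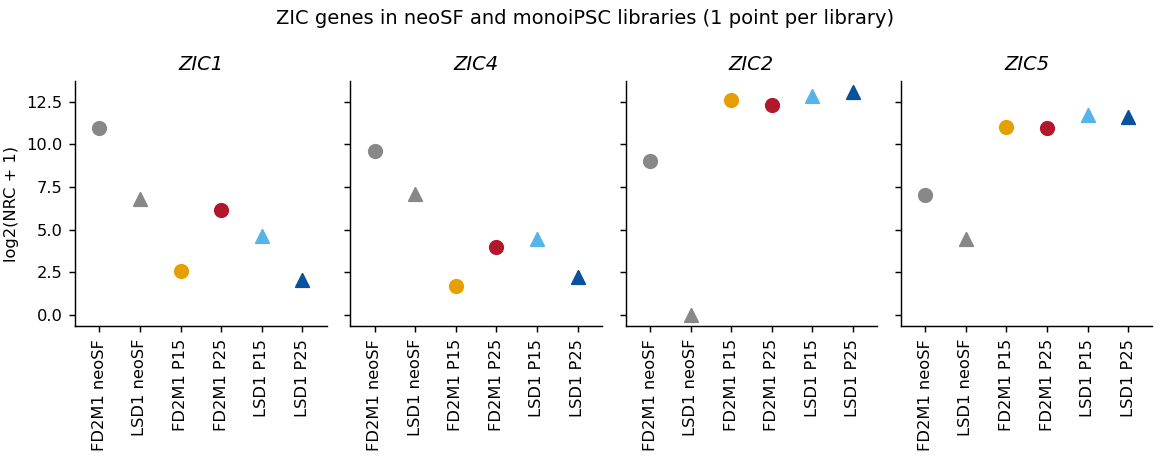
The 4 ZIC genes in each library, as log2(NRC + 1), with 1 point per library, circles for FD2M1 and triangles for LSD1. ZIC1 and ZIC4 are higher in both neoSF libraries than in any monoiPSC library and ZIC2 and ZIC5 are lower, and the LSD1 neoSF library lies below the FD2M1 neoSF library in all 4 panels.

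FABP7, a fatty acid-binding protein of radial glia, had the largest ratio between group means among the listed genes for which one could be computed. Its NRC was 7.17 and 2.32 in neoSFs and 12579, 7748, 12484 and 9664 in monoiPSCs. The ratio of the summed scaled counts was 2402, with an exact 95% interval of 1029 to 7399. RFX4, a winged-helix factor of the neural tube, had 0 rounded counts in both neoSF libraries and an NRC of 623, 892, 873 and 970 in monoiPSCs, at least 143-fold higher against a floor of 3 counts per library. MSI1, an RNA-binding protein of neural stem cells, had an NRC of 174 and 169 in neoSFs and of 2612, 2202, 2456 and 2500 in monoiPSCs. Its log2 fold change was 3.93 ± 0.17 (SE, 4 against 2 libraries), and its highest monoiPSC library was 1.19-fold above its lowest. PTPRZ1, a receptor phosphatase of glial progenitors, had 12.9 and 102 in neoSFs and 345, 337, 399 and 323 in monoiPSCs. These 4 progenitor genes showed a spread of at most 1.62-fold between monoiPSC libraries, whereas the neoSF strains differed more than that in PTPRZ1.

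Of the regional factors, 1 of 8 of the forebrain and eye field and 3 of 5 of the midbrain-hindbrain region and posterior neural plate were expressed in monoiPSCs, a difference that was not tested. Of the 8 forebrain and eye field factors, OTX1 alone was expressed in monoiPSCs, at 27.1, 64.2, 35.8 and 104 against 0 and 7.92 in neoSFs. OTX2, which is required for the forebrain and midbrain, had an NRC of 3.37 in the FD2M1 line at passage 15 and was listed at 0 in the other 5 libraries. LHX5 was listed at 0 in all 6 libraries, and HESX1 was at the floor in both groups. SIX6 reached at most 3.16. LHX2 and SIX3, factors of the forebrain and eye field, were highest in the LSD1 neoSFs, at 104 and 39.0, and did not exceed 23.6 and 20.3 in monoiPSCs. PAX6, a factor of the eye, forebrain and hindbrain, ranged most widely, with 140, 41.3, 24.5 and 2.06 in monoiPSCs against 0 and 10.6 in neoSFs, a 68.0-fold span between monoiPSC libraries. It was lower at passage 25 than at passage 15 in both lines. It missed the expression threshold through the LSD1 library of passage 25 alone, so this difference was not tested.

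Of the factors of the midbrain-hindbrain region and the posterior neural plate, GBX2, EN1 and IRX3 were expressed in monoiPSCs, whereas EN2 and PAX2 were not. GBX2, which sets the hindbrain side of the midbrain-hindbrain boundary, had an NRC of 5.85 and 4.91 in neoSFs and of 1277, 1074, 1923 and 1226 in monoiPSCs, a ratio of 258 with an exact 95% interval of 118 to 703. IRX3, a homeodomain factor of the neural tube, had 105 and 135 in neoSFs and 1191, 1058, 1031 and 518 in monoiPSCs, a log2 fold change of 3.08 ± 0.40 (SE). EN1, the engrailed factor of the midbrain-hindbrain region, was present in neoSFs too, at 334 and 310, and had 887, 1506, 637 and 915 in monoiPSCs, a log2 fold change of 1.71 ± 0.35 (SE). The lowest monoiPSC library of EN1 was above both neoSF libraries. PAX2 reached 24.2 and EN2 8.76 in monoiPSCs, and EN2 was 14.3 in the LSD1 neoSFs.

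Of 3 ventral neural tube factors, NKX6-1 and NKX2-2 were expressed in monoiPSCs, and of 3 proneural factors, NEUROG1 and NEUROG2. NKX6-1, a factor of ventral progenitors, had an NRC of 53.1, 77.6, 224 and 192 in monoiPSCs and of 14.6 and 0 in neoSFs. NKX2-2, which marks more ventral progenitors, had 58.3, 22.6, 69.2 and 24.2 in monoiPSCs against 17.6 and 27.5 in neoSFs, and the groups overlapped. OLIG2, a factor of motor neuron and oligodendrocyte progenitors, did not exceed 13.8. The bHLH factors NEUROG1 and NEUROG2, which start neuronal differentiation, ranged from 45.8 to 78.4 and from 20.1 to 56.8 in monoiPSCs. NEUROG1 had 0 counts in both neoSF libraries and was at least 11.6-fold higher in monoiPSCs. NEUROD1, which acts after them, had 53.3, 34.8, 22.3 and 16.4 in monoiPSCs, the last of these under the expression threshold.

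Of the genes of postmitotic neurons, TUBB3, STMN2, MAP2 and GAP43 had an NRC of at least 20 in every monoiPSC library. TUBB3, MAP2 and GAP43 also reached this level in both neoSF libraries. TUBB3, the neuronal beta-tubulin, had an NRC of 162 and 107 in neoSFs and of 3171, 1438, 1120 and 3414 in monoiPSCs, a log2 fold change of 4.19 ± 0.61 (SE). STMN2, a microtubule-destabilizing protein of growth cones, had 162 and 15.0 in neoSFs and 2264, 1611, 1108 and 2725 in monoiPSCs. MAP2, a microtubule-associated protein of dendrites, had 92.2 and 46.2 in neoSFs and 1883, 759, 952 and 1546 in monoiPSCs. In TUBB3, STMN2 and MAP2 the groups did not overlap, and the FD2M1 line at passage 15 and the LSD1 line at passage 25 were the higher libraries. GAP43, a growth cone protein, had 394 and 114 in neoSFs and 3414, 1866, 1934 and 4236 in monoiPSCs, with the same libraries on top.

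The neuronal ELAV proteins bind and stabilize mRNAs in neurons. ELAVL3 had 0 counts in both neoSF libraries and an NRC of 571, 360, 456 and 913 in monoiPSCs, at least 98.2-fold higher. ELAVL4 had 7.80 and 0 in neoSFs and 958, 284, 285 and 511 in monoiPSCs. ELAVL2 had 94.3 and 60.6 in neoSFs and 443, 206, 358 and 387 in monoiPSCs, a log2 fold change of 2.28 ± 0.40 (SE). The higher pair of monoiPSC libraries was again FD2M1 at passage 15 and LSD1 at passage 25 in each of these genes.

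Adhesion and synaptic genes were less uniform. NCAM1, the neural cell adhesion molecule, had an NRC of 330 and 37.5 in neoSFs and of 1542, 1438, 1425 and 2683 in monoiPSCs. NRCAM, an adhesion molecule of axons, had 256 and 90.6 in neoSFs and 158, 196, 252 and 238 in monoiPSCs, so the monoiPSC libraries lay between the strains of neoSFs. SYT1, the calcium sensor of synaptic vesicles, had 614 and 392 in neoSFs and 250, 280, 236 and 510 in monoiPSCs, and its groups overlapped through the LSD1 library of passage 25. In both strains of neoSFs the level of SYT1 was above 3 of the 4 monoiPSC libraries.

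The neuropeptide genes CALCB, a calcitonin gene-related peptide of sensory neurons, and GAL, which encodes galanin, had 0 counts in both neoSF libraries. CALCB had an NRC of 676, 370, 451 and 1259 in monoiPSCs, at least 118-fold higher. GAL had 1013, 576, 389 and 520, at least 107-fold higher. MAB21L2, which takes part in eye and midbrain development, had 477 and 3.17 in neoSFs and 3333, 3620, 3230 and 5323 in monoiPSCs. Its neoSF level differed 151-fold between the strains, but this ratio rests on a count of 2 in the LSD1 library, under the floor. Every monoiPSC library was above both neoSF libraries. DCX, by its gene number, had 978 and 888 in neoSFs and 2463, 2197, 1176 and 1170 in monoiPSCs, lower at passage 25 than at passage 15 in both lines.

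The neoSF strains were also set side by side, without a test because each had 1 library. Of 20 listed genes that reached an NRC of 20 in either neoSF library, 9 were at least 2-fold higher in FD2M1 and 3 in LSD1. Over all 12669 genes at that level, 8.45% were at least 2-fold higher in FD2M1 and 7.45% in LSD1. ZIC1, ZIC2, MAB21L2, STMN2 and NCAM1 were among those higher in FD2M1, and LHX2 and PTPRZ1 among those higher in LSD1.

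Passage 25 was compared with passage 15 over the 4 monoiPSC libraries, with the line as a covariate. The genes had been chosen by their difference from neoSFs, with results of these same libraries known. No listed gene was called by edgeR (0% of all 12252 expressed genes), and 4 of 27 had an unadjusted p under 0.05, against 9.35% of all genes. The smallest adjusted p of a listed gene was 0.289 (edgeR quasi-likelihood test, Benjamini-Hochberg). The fit left 1 residual degree of freedom, which is the difference between the lines in their change with passage. NKX6-1 was 4.21-fold higher at passage 25 in the FD2M1 line and 2.47-fold higher in the LSD1 line, a log2 fold change of 1.67 ± 0.36 (SE, 2 against 2 libraries; adjusted p = 0.289, edgeR). DESeq2 called it at 1.68 ± 0.48 (adjusted p = 0.0423), as it did 0.939% of all genes, and called none of the other 26. GAL had a log2 fold change of -0.78 ± 0.31 (adjusted p = 0.520, edgeR). The values were -0.63 ± 0.24 for IRX3 (adjusted p = 0.510, edgeR) and -0.61 ± 0.17 for EN1 (adjusted p = 0.411, edgeR). Both passage 25 libraries of EN1 and IRX3 were below the passage 15 library of their own line. The median log2 fold change with passage was 0.14 over the 27 genes and -0.01 over all expressed genes.

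The LSD1 line was compared with the FD2M1 line in the same fit, in which line and strain are the same. No listed gene was called by edgeR (0% of all genes) or by DESeq2 (1.57% of all genes), and 7 of 27 had an unadjusted p under 0.05, against 14.2% of all genes. The smallest adjusted p was 0.193 (edgeR), for ZIC5, which had a log2 fold change of 0.66 ± 0.15 (SE, 2 against 2 libraries) with both LSD1 libraries above both FD2M1 libraries. The adjacent ZIC2 was 0.52 ± 0.16 (adjusted p = 0.264, edgeR) on this scale, again with both LSD1 libraries higher. OTX1 was 1.40 ± 0.37 (adjusted p = 0.234, edgeR) and EN1 0.65 ± 0.17 (adjusted p = 0.231, edgeR). NKX2-2 was -1.43 ± 0.39 (adjusted p = 0.234, edgeR) and FABP7 -0.53 ± 0.15 (adjusted p = 0.236, edgeR), both higher in the FD2M1 line. The median over the 27 genes was 0.18, and that over all expressed genes was 0.01.

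As a group, the listed genes varied more between monoiPSC libraries than expressed genes in general. In 11 of them the order of the libraries followed neither passage nor line. The wide spread also covered genes described above by passage or line, such as NKX6-1 and OTX1. The highest library of a listed gene was a median of 2.27-fold above its lowest, against 1.47-fold over all expressed genes, and 16 of 27 spanned at least 2-fold, against 19.5% of all expressed genes. In 11 of the 27 expressed genes the FD2M1 line at passage 15 and the LSD1 line at passage 25 were both above the other 2 libraries, an order found in 12.1% of all expressed genes. These were ELAVL2, ELAVL3, ELAVL4, TUBB3, STMN2, MAP2, GAP43, NEUROG2, NCAM1, CALCB and MSI1. The gap between the pairs was small in MSI1 (2500 against 2456), ELAVL2 (387 against 358) and NCAM1 (1542 against 1438). MSI1 spanned only 1.19-fold. The reverse order was found in 0 of 27 listed genes and in 10.5% of all expressed genes. This order was noticed after the values were seen, all genes share the same 4 libraries, and it was not tested.

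The order was shared by TUBB3, STMN2, MAP2 and GAP43, the 4 cytoskeletal and growth cone genes with a row under their symbol, and by the 3 neuronal ELAV genes, but not by DCX. Among the progenitor genes it was seen in MSI1 and not in RFX4, FABP7 or PTPRZ1. It was also absent from the neuronal genes NRCAM, SYT1, GAL and NEUROG1, and from ZIC2, ZIC5, OTX1, EN1, GBX2, IRX3, NKX2-2, NKX6-1 and MAB21L2. TUBB3 was 2.83-fold lower at passage 25 than at passage 15 in the FD2M1 line and 2.37-fold higher in the LSD1 line. ELAVL4 was 3.36-fold lower in FD2M1 and 1.80-fold higher in LSD1. MAP2 was 1.98-fold lower and 2.04-fold higher. With NEUROG2, STMN2 and GAP43, these were the 6 genes that were at least 1.5-fold lower at passage 25 in FD2M1 and at least 1.5-fold higher in LSD1, as were 1.67% of all expressed genes. The opposite changes met in the residual of the comparison of passages, which had a single degree of freedom.

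**Figure D3:**
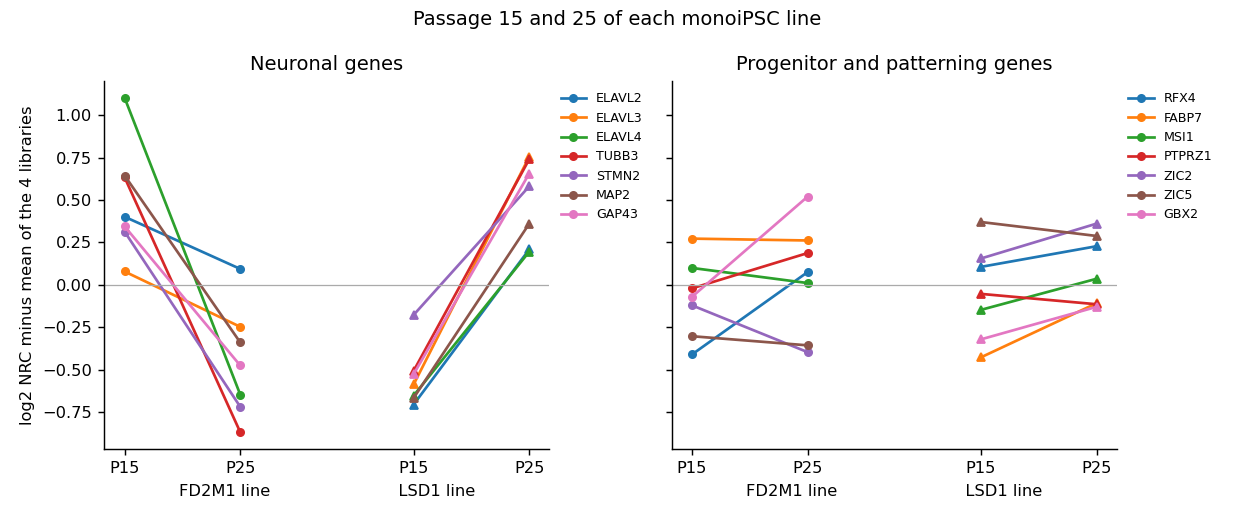
Change between passage 15 and passage 25 in each monoiPSC line, as log2 NRC minus the gene's mean over the 4 libraries, with 1 point per library, circles for FD2M1 and triangles for LSD1. The 7 neuronal genes on the left were picked from those with the order described above. All 7 are therefore lower at passage 25 in FD2M1 and higher in LSD1. Neuronal genes without this order, such as NRCAM, SYT1, GAL, NEUROG1 and DCX, are not drawn. The progenitor and patterning genes on the right follow no common course.

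Other neural genes, listed from textbook roles with earlier results of these data known, had the order in unequal shares. It was found in 26 of 36 expressed genes of neuron structure and synapse and in 9 of 12 proneural and postmitotic factors, whereas it was found in 5 of 27 genes of neural plate and progenitors and in 1 of 10 regional factors. Both neuropeptide genes expressed in monoiPSCs, ADCYAP1 and PENK, had it, and 0 of 7 genes of the REST repressor complex did. The summed NRC of 10 pluripotency genes was 11802 in the LSD1 line at passage 25, the lowest of the monoiPSC libraries. In the FD2M1 line at passage 15 it was 15156, close to the 15408 of the LSD1 line at passage 15. The FD2M1 line at passage 25 had 16981. The part of this in the neuronal genes was not tested.

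**Figure D4:**
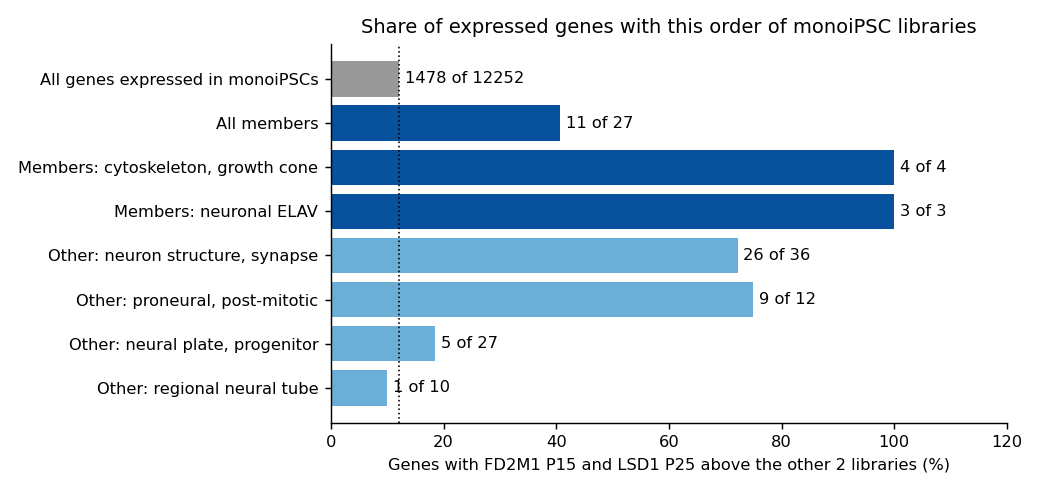
Share of genes expressed in monoiPSCs, in percent, for which the FD2M1 line at passage 15 and the LSD1 line at passage 25 were both above the other 2 libraries, with counts beside the bars, listed genes in dark blue and other neural genes in light blue. The dotted line is the share over all expressed genes, 12.1%, and every group of neural genes shown exceeds it except the regional one. Not drawn are the other role groups of listed genes, from 0% (such as ZIC genes) to 50% (such as neuropeptides). The other neuropeptide genes (2 of 2) and the REST complex genes (0 of 7) are also not drawn.

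Against neoSFs, 65 of the 96 tested other neural genes were called higher and 8 lower in monoiPSCs, beside the 24.3% and 21.6% of all tested genes. Of neuron structure and synapse genes, 29 of 37 were higher and 1 lower. Of proneural and postmitotic factors, 10 of 12 were higher and 0 lower. All 12 of these factors were expressed in monoiPSCs, and the 7 that were not went untested. A gene near the floor in neoSFs was tested only if expressed in monoiPSCs, and the lists were chosen with earlier results known. These shares therefore describe the libraries and are no test of the lists. INSM1, a factor of newborn neurons and endocrine cells, had an NRC of 9.76 and 0 in neoSFs and of 1640, 1687, 870 and 1870 in monoiPSCs. It was higher in every monoiPSC library. Of neural plate and progenitor genes, 17 of 28 were higher and 3 lower, while NES, which encodes the intermediate filament nestin, was not called, with 6143 and 24777 in neoSFs and 4960, 6455, 4225 and 10431 in monoiPSCs. Of regional factors, 5 of 10 were higher and 3 lower. FOXA2 and SHH, which are made by the floor plate and by endoderm, were among the higher ones, with FOXA2 at 27.3 and 26.4 in neoSFs and at 1118, 1511, 3719 and 3820 in monoiPSCs. PENK, the proenkephalin gene, was lower, with 18275 and 18465 in neoSFs and 584, 361, 236 and 575 in monoiPSCs.

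All 7 genes of the REST repressor complex with a row were expressed in monoiPSCs. REST had an NRC of 2823 and 2573 in neoSFs and of 1843, 1243, 1330 and 1013 in monoiPSCs, a log2 fold change of -0.89 ± 0.23 (SE, 4 against 2 libraries; adjusted p = 0.0118, edgeR) that did not reach 2-fold. Every monoiPSC library was below both neoSF libraries. Of the 7 genes of the complex, 3 were called higher in monoiPSCs and 0 lower. The deacetylases HDAC1 and HDAC2 had log2 fold changes of 2.16 ± 0.24 (adjusted p = 0.000251, edgeR) and 1.56 ± 0.19 (adjusted p = 0.000421, edgeR). In this fit both passages of a line counted as separate libraries, and strain was not a term. These p-values therefore do not measure a spread between independent lines, and cell type cannot be told apart from platform.

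Markers of other cell types that the cultures could hold were read in the same libraries. Of 10 pluripotency genes all were called higher in monoiPSCs, and their summed NRC was 146 to 241 in neoSFs and 11802 to 16981 in monoiPSCs. Of 15 fibroblast genes 14 were called lower, and their sum was 1916700 to 2042800 in neoSFs and 17295 to 21669 in monoiPSCs. Of neural crest and Schwann cell genes 3 were called higher and 2 lower, with sums of 8417 to 10944 in neoSFs and of 15513 to 28634 in monoiPSCs, and SOX10, FOXD3, ERBB3 and S100B had no row. Melanocyte genes summed to 326 to 661 in neoSFs and 6049 to 17409 in monoiPSCs, and TYR, KIT, TYRP1 and DCT were at the floor in neoSFs. Genes of astrocytes and oligodendrocytes summed to 1505 to 2408 and 3173 to 4399. Skeletal muscle genes summed to 17536 and 21808 in neoSFs, above every monoiPSC library. Their sum was 16874 in the LSD1 line at passage 25 and 2061 to 6443 in the other monoiPSC libraries. The part of these cell types in the neural genes was not tested.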

How the data were processed

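The authors aligned reads to MonDom5 with StrandNGS and counted them on RefSeq genes. The deposited raw counts were fractional in 87.1% of values above 0, and were rounded as estimated counts. A second deposited table holds log2 values made by the authors with DESeq, and NRC is 2 to the power of these log2 values. How read pairs were counted was not given in the sources used here.

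Counts were tested with edgeR 4.0.16 (TMM, glmQLFit and glmQLFTest, R 4.3.3) over the 13072 genes expressed (NRC of 20 or more in every library) in neoSFs or monoiPSCs and, within monoiPSCs, over the 12252 expressed there. Calls required a 2-fold change and a p, adjusted by Benjamini-Hochberg, not above 0.05. The SE of an edgeR fold change is its absolute log2 value divided by the square root of its F statistic. Strain, from the labels, pairs neoSFs with monoiPSCs, and was a block in an alternative. DESeq2 1.42.0 and limma 3.58.1 were alternatives, and the fits were tested on simulated data. No cultures were repeated within a line and passage, so p-values measure the spread between these libraries.

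The members and gene lists were chosen with earlier results of these data known. Genes with a mean NRC of 100 or more are given by library, up to 6 genes with an unadjusted p under 0.05 per comparison with their tests, and up to 3 genes of each other list by monoiPSC level. ZIC pairs were read from the RefSeq order of another assembly, so no coordinates are given. Promoter and protein sequences were not analysed here. The values of 1 gene of the other neural lists are not reported here.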

Additional observations from a re-analysis of the deposited data

Results flagged for a closer look

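In 6 genes the monoiPSC lines moved in opposite directions from passage 15 to passage 25, each by at least 1.5-fold, with 1 library per line and passage, so the difference was not tested. The ratio of NRC at passage 25 to that at passage 15 was 0.298 in FD2M1 and 1.80 in LSD1 for ELAVL4. It was 0.388 and 1.93 for NEUROG2, 0.353 and 2.37 for TUBB3, and 0.489 and 1.69 for STMN2. For MAP2 it was 0.506 and 2.04, and for GAP43 0.567 and 2.27. In the same libraries DCX was lower at passage 25 in both lines.

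The LSD1 library of passage 25 stood apart in 2 genes. Its gap to the next monoiPSC library was 0.907 of the range of the 4 libraries for NCAM1 and 0.842 for SYT1. For 4 independent, normally distributed values, chance alone would place about 1 in 20 genes past the limit used. The NRC values were not checked for this, and the share over all expressed genes was not computed.

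For NRCAM the mean monoiPSC NRC was 0.798 times the neoSF NRC in FD2M1 and 2.4 times in LSD1. The difference between strains was not tested.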

How the results depend on the processing

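DESeq2 called 115 genes with passage, among them 1 listed gene, NKX6-1, and 192 genes with line, where edgeR called 0 of each, with 1145 and 1736 genes at an unadjusted p under 0.05. The cause was not tested. Without each monoiPSC library in turn, edgeR called 0 to 0 genes, and 0 to 0 listed genes, with passage or line, but the spread then came from the neoSF libraries alone (all remaining libraries were fitted), so these counts say nothing about stability. Against neoSFs, without each library in turn, it called 5672 to 5920 genes and 25 to 26 listed genes. With the strain as a replicate block it called 6012 genes and 26 listed genes, and without the line as a block in the comparison of passages 0. Listed genes called against neoSFs kept their direction under these alternatives, while NRCAM, which was not called, had a log2 fold change of 0.39 and of -0.18 without the LSD1 neoSF library. Of the listed genes' fold changes against neoSFs, 283 values under alternatives moved by less than the standard error of the main fit. The other 36 moved by more, most of them without 1 neoSF library. The order in which FD2M1 at passage 15 and LSD1 at passage 25 were highest, when a gap of at least 10% was required (chosen after seeing the data), was found in 640 of all expressed genes, 8 listed genes and 31 other neuronal genes, and with TMM-scaled counts in 1513, 11 and 35. The promoter motif alternative was not run, since no sequence was used here. Depth was lower in neoSFs, where 3 counts are an NRC of 5.85 and 4.75, against at most 1.88 in monoiPSCs.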
